A study of Mus musculus with 9 samples.

Results

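NMuMG cells that overexpressed EPR were compared, gene by gene, with NMuMG cells that overexpressed EPRSTOPE, the same RNA with a stop codon in place of the second codon of its small open reading frame (ORF). The comparison rests on 6 of the 9 RNA-Seq libraries of the series, chosen by their genotype labels. EPR cells gave libraries 206, 207 and 208, and EPRSTOPE cells gave libraries 209, 210 and 211. The other 3 libraries, 203, 204 and 205, came from mock cells with the empty vector, and they enter the fit and show the level of each gene without either transcript. NMuMG is an established line of mouse mammary gland epithelium. All 3 populations were stable transfectants selected with G418 as pools, kept in medium with serum, and none of the sequenced cells received TGF-β. A pool is a mixture of transfected cells, not a clone, and the sources used here do not say whether the 3 libraries of a group came from separate transfections. The study calls them biological triplicates. The p-values measure the spread between these libraries, which may not cover the spread between separately transfected pools. The question behind the comparison is which differences in expression go with the peptide, EPRp, since both transcripts contain the RNA and the mutant cannot give the peptide.

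Epithelial cells are held to each other by tight junctions, adherens junctions and desmosomes. Integrins anchor them to the basement membrane, among them the α6β4 integrin of hemidesmosomes. Cells that go through an epithelial-to-mesenchymal transition (EMT) lose these contacts and make fibronectin, vimentin and other matrix and cytoskeletal proteins. EPR was described as a long noncoding RNA of epithelial cells, and the study places the peptide read from its ORF at cell junctions, next to tight junction and actomyosin proteins. Proliferating cells express the genes of DNA replication around the start of S phase, largely through E2F factors. They express the genes of mitosis later, through protein complexes that bind CCAAT boxes and CHR elements in the promoters.

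The start of the ORF is shown because the mutation is the designed difference between the 2 transcripts. EPR is annotated as BC030870, on the minus strand of chromosome 8. The 30 bases from the start codon lie in the coding part of exon 2, at chr8:65108388-65108417 of GRCm38 (Gencode M21), and are bases 345 to 374 of the transcript counted from its 5′ end. Codon 2 is in capitals. Only 1 single-base change of this codon gives a stop, G348T, and the EPRSTOPE line was written from it. The mutagenesis oligonucleotide that the study lists for EPRSTOPE also has TAG directly after the start codon. The files hold no reads, so the mutation itself was not seen here.
EPR: atgGAGctaccattcaccaacttggaggtg
EPRSTOPE: atgTAGctaccattcaccaacttggaggtg

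Library totals ran from 5972457 to 11876435 estimated counts. Levels are given as counts per 1000000 (CPM), normalized by TMM, and 3 counts corresponded to 0.244 to 0.508 CPM, so values below that rest on very few reads. The cells matched the luminal epithelial label in part. The summed level of 7 luminal markers was 9481 CPM or more in every EPR and EPRSTOPE library and 4156 CPM or less in mock libraries, most of it *Krt8* and *Krt18*, whereas *Cldn3* and *Cldn7* were below 1 CPM in every library. Summed markers of basal or myoepithelial cells (7 genes) reached at most 3.56 CPM in EPR and EPRSTOPE libraries and 12.2 CPM in mock libraries. Those of fibroblasts, adipocytes and immune cells did not exceed 4.55 CPM in any library, and *Ptprc*, *Adgre1*, *Col1a1* and *Adipoq* were below 1 CPM in every library. Those of endothelial cells summed to 12.9 to 19.9 CPM in every library, with *Kdr*, *Tek* and *Tie1* below 1 CPM. Markers of these other cell types were thus at low levels, and their part in the differences below was not tested. Between libraries of 1 group the Spearman correlation over tested genes was at least 0.978, and between EPR and EPRSTOPE libraries it was at most 0.958.

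EPR RNA itself was not matched between the populations. It stood at 23.7, 27.0 and 23.9 CPM in the EPR libraries and at 4.74, 4.16 and 3.80 CPM in the EPRSTOPE libraries. The groups did not overlap, and neither did their 95% Poisson intervals, which ran from 20.9 to 30.9 CPM and from 2.61 to 6.86 CPM and cover counting error only. The log2 fold change, EPR minus EPRSTOPE, was 2.56 (standard error 0.20, adjusted p = 2e-06), and the exact two-sided permutation test gave p = 0.1, the smallest that 3 libraries against 3 allow. Mock libraries had 0, 0 and 2 counts. The counts do not separate the endogenous from the transfected RNA. Every difference below is thus one between pools that differ in the peptide, in the amount of EPR RNA and in their own history. In these libraries the 3 cannot be told apart. The study named its peptide-dependent genes after analysing independent EPRSTOPE pools with qRT-PCR, and it also examined another peptide-null mutant. Its qRT-PCR data are not part of the comparison here.

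**Figure D1:**
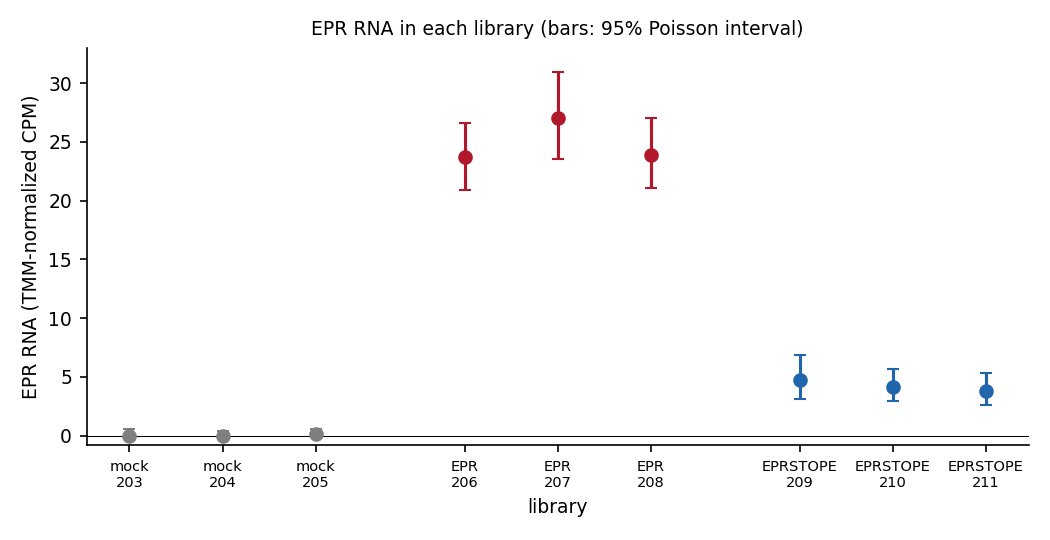
EPR RNA in each of the 9 libraries, in TMM-normalized CPM, with 95% Poisson intervals of the count as bars. The 3 EPR libraries lie between 23.7 and 27.0 CPM, the 3 EPRSTOPE libraries between 3.80 and 4.74 CPM and the mock libraries at or near 0.

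EPR cells exceeded EPRSTOPE cells for 1055 genes (6.86% of the 15370 tested) and fell below them for 976 (6.35%). A gene was called where the quasi-likelihood test of edgeR gave an adjusted p below 0.01 with a log2 fold change beyond 0.5 in size. Together they were 13.2% of the tested genes, against which the counts in gene lists below are to be read. The median log2 fold change over all tested genes was 0.0071. Differences of great size were common, with 173 genes higher and 86 lower by more than 3 on the log2 scale. Among the called genes, 37 had no count in any EPRSTOPE library and 10 had none in any EPR library. The 3 EPR and the 3 EPRSTOPE libraries did not overlap for 6608 genes (43% of those tested). When gene counts were scaled from TPM values in place of the summed estimated counts, 258 genes were called in the upward and 224 in the downward direction, and 69 of the genes named in the text were no longer called, with the sign of each kept. *Cgn*, *Vim* and *Krt19* were among the 69, whereas *Itgb4*, *Anxa6*, *Slc9a2*, *Slc39a4*, *Pcdh19* and *Apob* were still called.

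The mock libraries give a further level to set beside each difference. Mock cells are a separately selected pool, so nearness to them does not show which population had moved. Of the 1055 genes higher in EPR cells, the mock mean was nearer to the EPR mean for 583 and nearer to the EPRSTOPE mean for 472, on the scale of log2(CPM + 1). Of the 976 genes lower in EPR cells, it was nearer to the EPR mean for 539 and nearer to the EPRSTOPE mean for 437. Among the higher genes, the mock mean lay above both populations for 360, between them for 427 and below both for 268. Among the lower genes these numbers were 238, 382 and 356. The called differences thus included many genes for which both populations lay on the same side of mock.

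Several of the largest increases were of genes with few or no counts in EPRSTOPE cells, and some of these were expressed in mock cells. Of the 37 called genes with no count in EPRSTOPE libraries, the mock mean was below 1 CPM for 17 and at least 10 CPM for 7. Of the 20 largest increases at 10 CPM or more, it was below 1 CPM for 8 and at least 10 CPM for 8. *Armcx3*, which encodes a protein of the mitochondrial surface, was at 30.6, 29.9 and 37.1 CPM in EPR and 23.7 to 24.1 CPM in mock libraries, with no count in any EPRSTOPE library. *Hs6st2*, a heparan sulfate sulfotransferase, was at 9.60, 12.5 and 11.96 CPM in EPR and had no count in EPRSTOPE libraries, against 52.97 to 56.6 CPM in mock libraries. *Adamts10*, a secreted protease of the fibrillin matrix, was at 13.7, 16.5 and 11.9 CPM in EPR and also had no count in EPRSTOPE libraries. With 3 counts over the EPRSTOPE group as the floor, these genes were at least 261-fold, 89.5-fold and 110-fold higher in EPR cells. *Abcb1b*, a drug efflux transporter, was at 41.6 to 42.6 CPM in EPR, 0.534 to 1.19 CPM in EPRSTOPE and 58.7 to 64.0 CPM in mock libraries (log2 fold change 5.85). *Igf2r*, the receptor that clears IGF2 and sorts lysosomal enzymes, was still detected in EPRSTOPE cells and exceeded its mock level in EPR cells. It was at 278 to 297 CPM in EPR, 8.22 to 11.01 CPM in EPRSTOPE and 47.1 to 50.2 CPM in mock libraries (log2 fold change 4.95).

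Other large increases were of genes at low levels in both mock and EPRSTOPE cells. *Itgb4*, the β4 chain of the hemidesmosome integrin, was at 347, 366 and 330 CPM in EPR libraries, at 2.20, 3.20 and 2.07 CPM in EPRSTOPE libraries and at 1.27 to 2.80 CPM in mock libraries. *Slc9a2*, a sodium-proton exchanger of epithelia and a gene the study names as dependent on the peptide, was at 76.4, 76.8 and 72.8 CPM in EPR and at 0.508, 1.07 and 0.460 CPM in EPRSTOPE libraries. *Itgb4* lies at chr11:115974709-116008412 and *Slc9a2* at chr1:40680574-40769273 of GRCm38, and these and later positions cover the whole annotated gene. Neither gene's groups overlapped, with log2 fold changes of 7.09 (standard error 0.16, adjusted p = 1.3e-10) and 6.71 (standard error 0.22, adjusted p = 1.8e-09). *Trf*, which encodes transferrin, varied more among EPR libraries, at 25.5, 14.8 and 28.4 CPM, against 0.690 CPM or less in EPRSTOPE libraries. *Gpm6b*, a membrane proteolipid, *Cxcl16*, a membrane-bound chemokine, and the secreted proteases *Adamts9* and *Adamts15* showed the same order, at 15.2 to 51.5 CPM in EPR libraries and 1.92 CPM or less in EPRSTOPE and mock libraries. Their log2 fold changes were 6.09, 5.72, 5.67 and 5.41. *Syt14*, a synaptotagmin, had 569 counts in EPR and 3 counts in EPRSTOPE libraries, a ratio of 151 with a 95% counting interval of 51.4 to 735. *Slit2*, a guidance ligand, was at 17.6 to 22.5 CPM in EPR, at 0.345 CPM or less in EPRSTOPE and at 2.85 to 4.51 CPM in mock libraries (log2 fold change 6.28).

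The largest decreases were led by *Serpinb11* and *Serpinb7*, serpins of the same cluster on chromosome 1. *Serpinb11* had no count in EPR libraries and 21.4, 26.5 and 25.9 CPM in EPRSTOPE libraries, and *Serpinb7* had none against 14.2, 11.96 and 9.32 CPM. With 3 counts over the EPR group as the floor they were at least 251-fold and 116-fold lower in EPR cells, and both were nearly absent from mock cells. *Ptprb*, a receptor phosphatase best known from endothelium, was at 0.524, 0 and 0.0935 CPM in EPR and at 69.0, 59.4 and 68.1 CPM in EPRSTOPE libraries (log2 fold change -8.06), with 0.633 to 1.398 CPM in mock libraries. *Tfpi*, an inhibitor of blood coagulation, and *Pde10a*, a cyclic nucleotide phosphodiesterase, also stood apart in EPRSTOPE cells, at 23.6 to 29.3 and 25.6 to 31.5 CPM, against 1.77 CPM or less in EPR and mock libraries. *Gem*, a small GTP-binding protein, had 3 counts in EPR and 394 counts in EPRSTOPE libraries, a ratio of 165 with an interval of 56 to 803.

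*Anxa6* and *Fstl1* went the other way, standing apart in EPR cells. *Anxa6*, a calcium-dependent membrane-binding protein that the study also names as dependent on the peptide (chr11:54979108-55033445), was at 0.873, 1.26 and 1.495 CPM in EPR libraries, at 223, 240 and 232 CPM in EPRSTOPE libraries and at 302 to 313 CPM in mock libraries. *Fstl1*, a secreted glycoprotein of mesenchymal cells, was at 0.698, 1.26 and 1.68 CPM in EPR, at 92.3, 80.4 and 85.7 CPM in EPRSTOPE and at 75.7 to 81.8 CPM in mock libraries. Their log2 fold changes were -7.58 (standard error 0.11, adjusted p = 2.3e-12) and -6.15 (standard error 0.16, adjusted p = 5e-10). *Mb21d1*, the cytosolic DNA sensor, and *Slc25a13*, a mitochondrial aspartate-glutamate carrier, were likewise at 1.39 CPM or less in EPR libraries and at 12.03 to 29.7 CPM in EPRSTOPE libraries. The mock levels of both genes were 18.02 to 33.5 CPM.

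**Figure D2:**
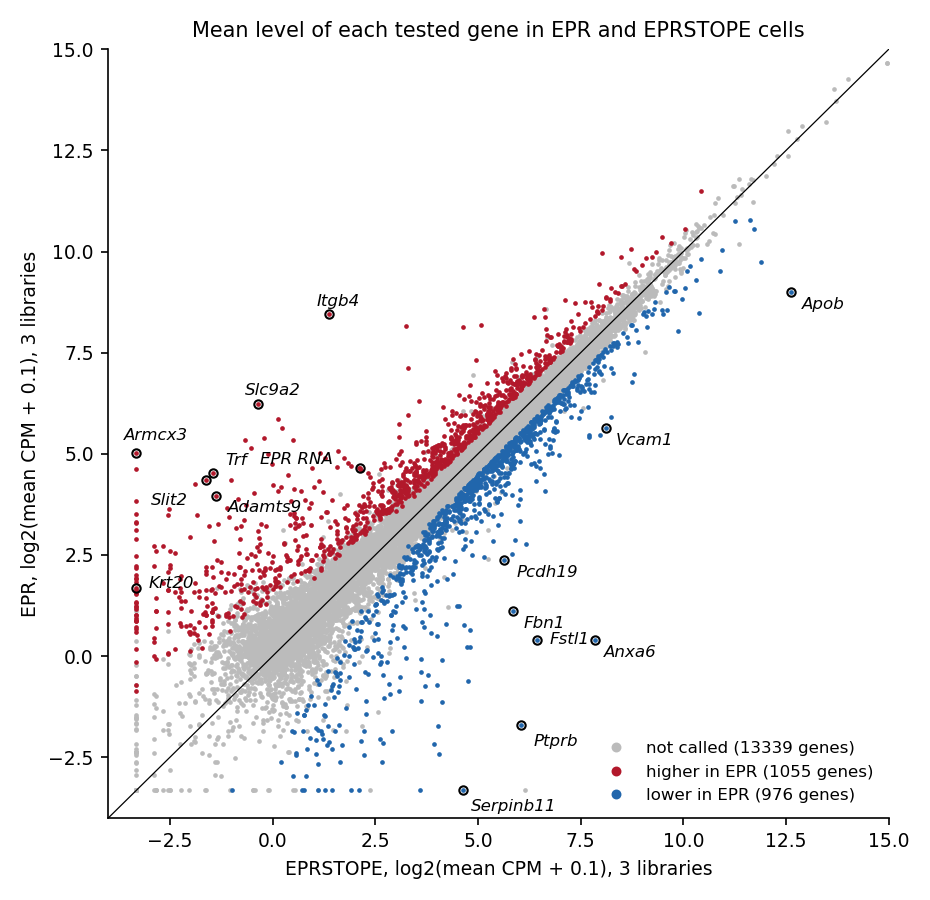
Mean level of each of the 15370 tested genes in EPRSTOPE cells (horizontal axis) and EPR cells (vertical axis), as log2(mean CPM + 0.1) over 3 libraries each. Genes called higher in EPR (1055) lie above the diagonal in red and genes called lower (976) below it in blue. *Itgb4* and *Anxa6* mark the extremes among abundant genes, and the columns of points at the left and bottom edges are genes without a count in 1 of the groups.

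Of the 10 most abundant called genes with a log2 fold change beyond 1, 9 are described here, and the widest gap was that of *Apob* (chr12:7977648-8016835), the structural protein of lipoproteins that liver and intestine secrete. It was at 484, 506 and 532 CPM in EPR libraries, at 6396, 6127 and 6373 CPM in EPRSTOPE libraries and at 142 to 156 CPM in mock libraries, with -3.63 on the log2 scale (standard error 0.05, adjusted p = 2.3e-12). *Mmp13*, a collagenase, was at 820 to 889 CPM in EPR and 3438 to 3992 CPM in EPRSTOPE libraries (log2 fold change -2.15). *Timp3*, an inhibitor of metalloproteases held in the matrix, was at 347 to 364 CPM in EPR and 1302 to 1376 CPM in EPRSTOPE libraries (log2 fold change -1.90). Both of these genes were nearer to their EPR level in mock cells. *Emp1*, an epithelial membrane protein, was at 726 to 737 CPM in EPR and 1883 to 1911 CPM in EPRSTOPE libraries (-1.38). *Prl2c2*, a proliferin with near-identical copies that may share its reads, and *Anxa8*, described with the annexins, were also lower (-1.01 and -1.13). *Spp1*, the secreted phosphoprotein osteopontin, was higher, at 2705 to 2976 CPM in EPR and 1262 to 1558 CPM in EPRSTOPE libraries (log2 fold change 1.05). *Ankrd1*, a target of mechanical and Hippo signals, and *Neat1*, the RNA of nuclear paraspeckles, were also higher (log2 fold changes 1.34 and 1.4), and both lie on chromosome 19, whose genes as a whole were shifted, as described at the end.

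The proteins that the study lists as pulled down with the peptide were represented by 48 genes, all of which passed the filter on low counts. Of these, 7 were higher, 2 lower and 39 not called, and the list's median log2 fold change was 0.03. Their summed level was 18521 to 19479 CPM in EPR and 18218 to 18950 CPM in EPRSTOPE libraries, so the groups overlapped. Scaling counts from TPM left 2 partners higher and 1 lower. Those that rose included the myosin genes *Myo5b* and *Myo6*, the junction genes *Cgn* and *Cgnl1*, the actin-binding supervillin gene *Svil* and the myosin light chain kinase gene *Mylk*. *Myo5b*, a motor of recycling endosomes, was at 58.6, 51.1 and 49.5 CPM in EPR, 8.81, 7.90 and 8.28 CPM in EPRSTOPE and 25.5 to 28.1 CPM in mock libraries (log2 fold change 2.68). *Myo6*, a motor that moves towards the minus end of actin, *Cgnl1* (paracingulin), *Cgn* (cingulin), *Svil* and *Mylk* had log2 fold changes of 1.08, 0.94, 0.91, 0.76 and 0.69.

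The tight junction and actomyosin proteins among the partners did not all move. *Cgn* was at 69.8, 70.1 and 74.8 CPM in EPR and 36.8, 38.3 and 38.9 CPM in EPRSTOPE libraries (standard error 0.09, adjusted p = 1.1e-05). *Cgnl1* was at 263, 281 and 271 CPM in EPR and 151, 136 and 137 CPM in EPRSTOPE libraries (standard error 0.06, adjusted p = 4.2e-07). *Tjp1*, which encodes ZO-1, *Myh9*, a nonmuscle myosin heavy chain, and *Cttn*, the actin-binding cortactin, were not called. The log2 fold change of *Tjp1* was -0.36, under the limit of 0.5 though its libraries did not overlap, that of *Myh9* 0.40 and that of *Cttn* -0.03 (adjusted p = 0.77). The partners that were lower were *Myo7a*, an unconventional myosin (-0.84), and *Vcam1*, a vascular adhesion molecule. *Vcam1* was at 45.7 to 55.5 CPM in EPR, 265 to 288 CPM in EPRSTOPE and 39.5 to 44.1 CPM in mock libraries (log2 fold change -2.47).

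Of 22 tested tight junction genes, 8 were higher, 1 lower and 13 not called, with a median log2 fold change of 0.61, and with counts scaled from TPM 3 were higher and none was lower. Without genes of chromosome 19, which as a whole were shifted, 7 were higher. Besides *Cgn* and *Cgnl1*, those higher included *Lsr*, a receptor of tricellular junctions, at 92.7, 76.8 and 77.6 CPM in EPR and 25.4, 24.2 and 25.9 CPM in EPRSTOPE libraries (log2 fold change 1.71). *Pard6b*, a polarity protein, rose with a log2 fold change of 1.33 and *Patj*, a scaffold of the Crumbs complex, with 0.98. The largest fold changes, 3.20 for the polarity gene *Crb3* and 2.46 for *Tjp3* (ZO-3), came from genes at 6.82 CPM or less in every library, and *Crb3* was not called without library 206, 210 or 211. In 4 of the 8 the mock mean lay between those of both populations and in the other 4 it lay below both. *Cldnd1*, a claudin-domain gene, was lower (log2 fold change -0.55). The abundant claudin *Cldn2* was not called, at a log2 fold change of 0.20.

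The other adhesion lists were split, and with counts scaled from TPM 1 adherens junction gene was lower and no desmosome gene was called. Of 16 adherens junction genes, *Nectin2* (log2 fold change 1.14) and *Epcam* were higher, and *Cdh17*, a cadherin of intestinal epithelium, and *Ctnnal1*, a catenin-like gene, were lower (-1.15 and -0.73). *Epcam*, an epithelial adhesion molecule, had 113 counts in EPR and 3 counts in EPRSTOPE libraries, a ratio of 30 with an interval of 10 to 148, and none in mock libraries. *Cdh1*, E-cadherin, was at 569, 542 and 558 CPM in EPR and 400, 427 and 381 CPM in EPRSTOPE libraries, which did not overlap, but its log2 fold change of 0.47 was not past the limit of 0.5. Among the fits that left out 1 library, it passed this limit only without library 210. Without library 206 or 207, 1 adherens junction gene was higher. Of 10 desmosome genes, the envoplakin gene *Evpl* (2.56) and the plakophilin gene *Pkp2* (0.50) were higher, and *Pkp1* (-1.07) and the cadherin *Dsg2* (-0.91) were lower. Leaving out library 206, 207 or 208 changed the number of higher desmosome genes to 1, 1 and 4, and *Pkp2* was not called without 206, 207 or 211.

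Several integrin genes were higher in EPR cells. Among 9 hemidesmosome and laminin-332 genes, *Itgb4* and *Itga3*, a laminin receptor chain (log2 fold change 0.64), were higher, whereas *Itga6*, the partner of *Itgb4*, was at 286, 299 and 279 CPM in EPR and 317, 310 and 308 CPM in EPRSTOPE libraries and was not called (-0.11, adjusted p = 0.14). Leaving out library 207 or 209 gave 1 lower gene in this list. Among 13 other integrin genes, 4 were higher, 1 lower and 8 not called. *Itga2*, a collagen receptor chain, was at 452, 455 and 437 CPM in EPR, 147, 123 and 147 CPM in EPRSTOPE and 132 to 140 CPM in mock libraries (log2 fold change 1.69). *Itgb3*, *Itga1* and *Itgb6* rose with log2 fold changes of 1.48, 1.45 and 0.87. *Itgb5*, a vitronectin receptor chain, was lower, at 47.1 to 51.1 CPM in EPR and 112 to 117 CPM in EPRSTOPE libraries (log2 fold change -1.23). Without library 210, 2 of these integrin genes were lower. With counts scaled from TPM, *Itgb4* of the former list and 2 genes of the latter were higher and none was lower.

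Of 12 basement membrane genes, 2 were higher and none was lower. *Lamb1*, a laminin chain, was at 13.4 to 17.3 CPM in EPR and 4.38 to 5.75 CPM in EPRSTOPE libraries (log2 fold change 1.58), both far below its 171 to 175 CPM in mock libraries. *Npnt*, an integrin ligand, was the other (log2 fold change 0.60). The collagen IV gene *Col4a1*, the most abundant of the list, was not called (-0.41). No gene of the list was called with counts scaled from TPM.

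**Figure D3:**
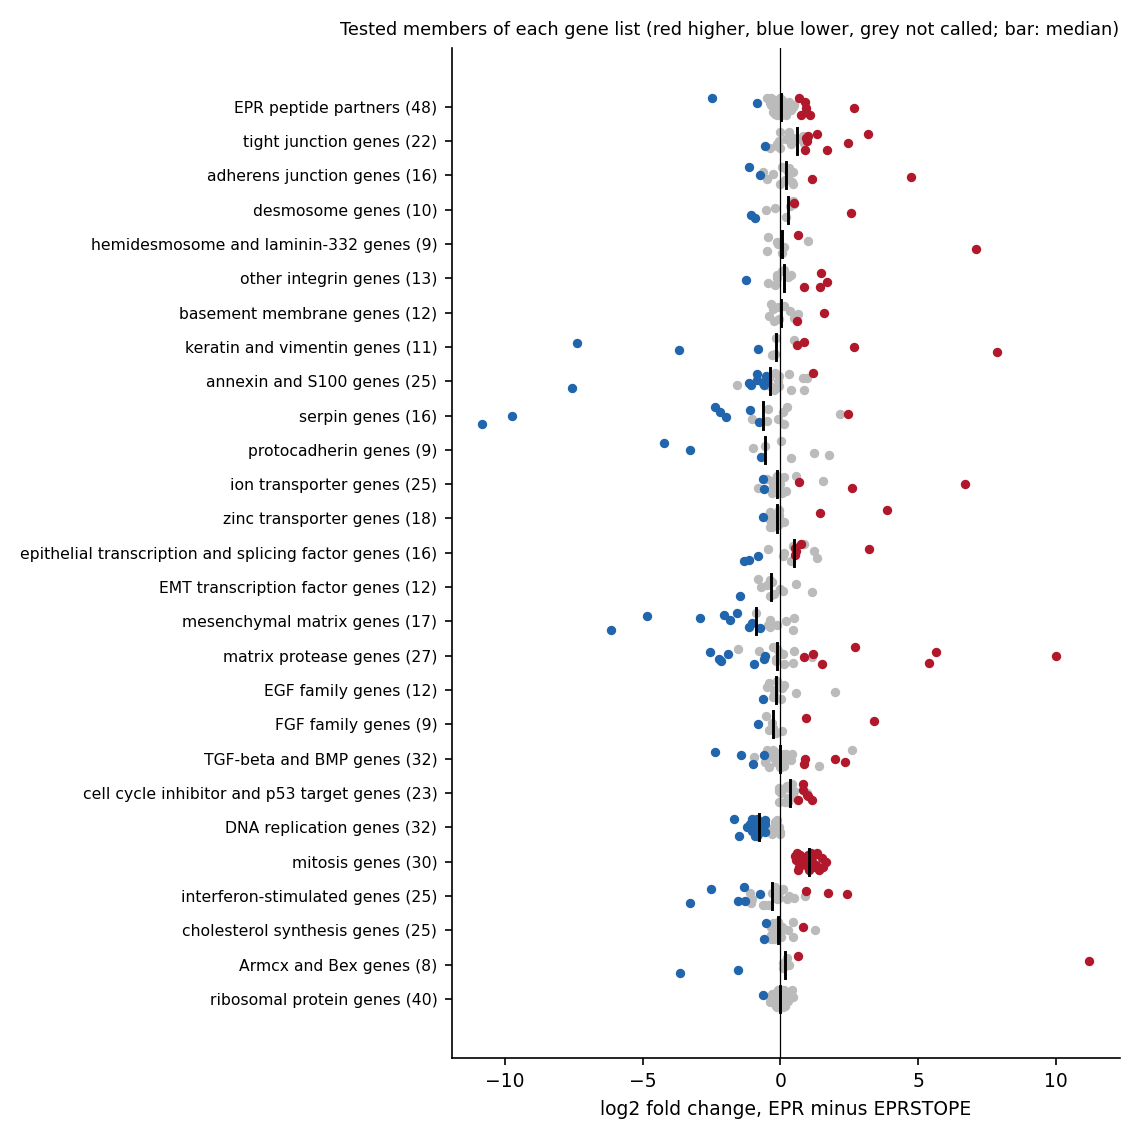
Log2 fold change, EPR minus EPRSTOPE, of each tested member of the 27 gene lists, with the number of tested members in brackets. Members called higher are red, called lower blue and not called grey, and the black bar is the list's median. The mitosis list lies wholly to the right of 0 and the DNA replication list wholly to the left, whereas most other lists are split and centred near 0.

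Keratins and vimentin were split between the directions, with 4 of 11 tested genes higher, 3 lower and 4 not called, and with counts scaled from TPM 1 was called in each direction. The abundant simple-epithelial keratins *Krt8* and *Krt18* were not called (log2 fold changes -0.18 and -0.14). *Krt19*, of luminal cells, was at 590, 570 and 593 CPM in EPR and 395, 395 and 366 CPM in EPRSTOPE libraries (log2 fold change 0.60). *Krt7* rose from 1.07 to 1.86 CPM in EPRSTOPE libraries to 8.47 to 9.53 CPM in EPR libraries (2.69), and *Krt20*, an intestinal keratin, had 96 counts in EPR libraries and none in EPRSTOPE or mock libraries, at least 25.5-fold higher in EPR than in EPRSTOPE cells. *Krt80*, another epithelial keratin, was the other member higher (0.85). The keratins that were lower, *Krt16* and *Krt14*, are best known from stressed and basal epidermis. *Krt16* was at 0.873, 2.27 and 0.748 CPM in EPR and 15.4, 17.5 and 14.7 CPM in EPRSTOPE libraries (-3.68), and *Krt14* had no count in EPR and 53 counts in EPRSTOPE libraries, at least 22.2-fold lower. *Vim*, the intermediate filament of mesenchymal cells, was at 1821, 1841 and 1641 CPM in EPR, 3012, 3229 and 3174 CPM in EPRSTOPE and 2535 to 2744 CPM in mock libraries (-0.83).

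Matrix genes of mesenchymal cells were lower in EPR cells or not called. Of 17 tested, 9 were lower and none was higher, with a median log2 fold change of -0.89, and for 14 of 17 the value was below 0. After *Fstl1*, the largest decreases were those of *Fbn1*, the fibrillin of microfibrils (log2 fold change -4.85), and *Adam12*, a metalloprotease of mesenchymal cells (-2.91). *Fbn1* was at 1.396, 2.90 and 1.87 CPM in EPR and 59.8, 57.1 and 55.5 CPM in EPRSTOPE libraries, and in mock libraries it was at 0.244 to 2.95 CPM. *Thbs1*, the matricellular thrombospondin, was at 121, 129 and 125 CPM in EPR, 463, 382 and 495 CPM in EPRSTOPE and 817 to 872 CPM in mock libraries (-1.84). *Col5a1* and *Col6a3*, collagen chains, had log2 fold changes of -1.57 and -2.05, and *Fn1* (fibronectin, named after its values were seen) was also lower (-1.05). For 6 of the 9 the mock mean was above both populations, and *Fbn1* was the only 1 of the 9 whose mock mean was nearer to EPR than to EPRSTOPE. The abundant matrix gene *Sparc* was not called (-0.12). Without library 206 or 211, 1 gene of the list was higher.

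Transcription factors of EMT mostly did not pass the test, whereas those of epithelia differed in both directions. Of 12 tested factors that drive EMT, 1 was lower, *Foxc1* (log2 fold change -1.45, at 2.27 to 2.65 CPM in EPR and 5.98 to 7.37 CPM in EPRSTOPE libraries), and 11 were not called, among them *Zeb1* (-0.02) and *Zeb2* (-0.39). Of 16 epithelial transcription and splicing factors, 5 were higher and 3 lower. *Ehf*, an ETS factor of epithelia, was at 15.01, 17.2 and 21.4 CPM in EPR and 2.03, 2.35 and 1.38 CPM in EPRSTOPE libraries (3.21). *Cdx2*, a factor of intestinal identity, was at 10.4, 9.98 and 10.9 CPM in EPR and 28.0, 29.8 and 21.1 CPM in EPRSTOPE libraries (-1.33), and *Grhl1* and *Elf3* were also lower (-1.14 and -0.82). The RNA-binding protein gene *Rbm47* (0.74) and the splicing factor gene *Esrp2* (0.57) were among those higher. Leaving out any of libraries 206, 207, 208 and 209 left 3 higher factors, and leaving out library 211 left 2. No factor of either list was called with counts scaled from TPM.

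Matrix proteases and their inhibitors differed in both directions, with 7 of 27 tested genes higher, 7 lower and 13 not called, and with counts scaled from TPM 3 were higher and 4 lower. Those lower included a group of neighbouring matrix metalloproteases on chromosome 9. *Mmp3*, *Mmp10* and *Mmp13* had log2 fold changes of -2.55, -2.24 and -2.15, and all 3 were lower still in mock than in EPR libraries. *Mmp10*, for example, was at 43.2, 47.1 and 42.7 CPM in EPR, 207, 197 and 223 CPM in EPRSTOPE and 7.81 to 9.39 CPM in mock libraries. The ADAMTS proteases *Adamts10*, *Adamts9* and *Adamts15* were among the largest increases given above. *Adam23*, a catalytically inactive relative, was also higher (2.69), but at 1.495 to 1.83 CPM in EPR libraries it lay far below its 64.1 to 67.1 CPM in mock libraries.

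The clearest pattern shared by a whole list was that of the cell cycle, and it had opposite signs for the 2 phases. All 30 mitosis genes (mitotic cyclins and kinases, kinesins, spindle checkpoint and centromere genes) were higher in EPR than in EPRSTOPE cells, with log2 fold changes of 0.54 to 1.67 and a median of 1.03. Of 32 DNA replication genes, 23 were lower in EPR cells and 9 not called, with a median of -0.78, and all 32 values were below 0. The EPR and EPRSTOPE libraries did not overlap for 30 of 30 mitosis genes, against 20.8% of all tested genes in that direction, and for 25 of 32 replication genes, against 22.2%. With counts scaled from TPM, 12 mitosis genes were higher and 12 replication genes lower.

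The summed level of the mitosis list was 2659, 2641 and 2570 CPM in EPR libraries and 1427, 1321 and 1318 CPM in EPRSTOPE libraries. Mock libraries, at 5431 to 5609 CPM, were above both populations, as they were for each of the 30 genes by its mean. *Ccnb2*, a cyclin of mitotic entry, had the largest difference, at 41.0, 38.4 and 39.1 CPM in EPR, 9.32, 13.2 and 14.04 CPM in EPRSTOPE and 45.1 to 55.5 CPM in mock libraries (log2 fold change 1.67, standard error 0.14, adjusted p = 3e-06). *Kif11*, the kinesin that separates the spindle poles, was at 105, 111 and 109 CPM in EPR, 41.5, 37.5 and 32.7 CPM in EPRSTOPE and 248.9 to 260 CPM in mock libraries (1.54). The centromere and kinetochore genes *Cenpa*, *Ndc80*, *Cenpf* and *Cenpe* followed, with log2 fold changes of 1.53, 1.39, 1.33 and 1.30. *Kif11* and *Incenp* lie on chromosome 19, and without them 28 mitosis genes were higher and none was lower.

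The summed level of the replication list was 1722, 1677 and 1696 CPM in EPR libraries, 2792, 2737 and 2652 CPM in EPRSTOPE libraries and 3309 to 3471 CPM in mock libraries. The groups did not overlap, and EPRSTOPE cells lay nearer to mock in this list, as 20 of the 23 called genes did by their means. *Cdc6*, which loads the replicative helicase, was at 28.2, 27.9 and 28.2 CPM in EPR, 96.9, 92.1 and 81.2 CPM in EPRSTOPE and 49.9 to 56.7 CPM in mock libraries (log2 fold change -1.68, standard error 0.08, adjusted p = 4.5e-08). *Ccne1*, a cyclin of the entry into S phase, was at 15.5, 12 and 12.8 CPM in EPR and 33.5, 40.6 and 40.2 CPM in EPRSTOPE libraries, with 11.8 to 16.6 CPM in mock libraries (log2 fold change -1.5). Both genes exceeded their mock level in EPRSTOPE cells. The origin gene *Orc1*, the cyclin *Ccne2*, the licensing factor *Cdt1* and the clamp loader subunit *Rfc3* had log2 fold changes of -1.23, -1.09, -1.05 and -1.02. The ribonucleotide reductase subunit *Rrm1*, the most abundant of the 9 not called, was at -0.11.

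**Figure D4:**
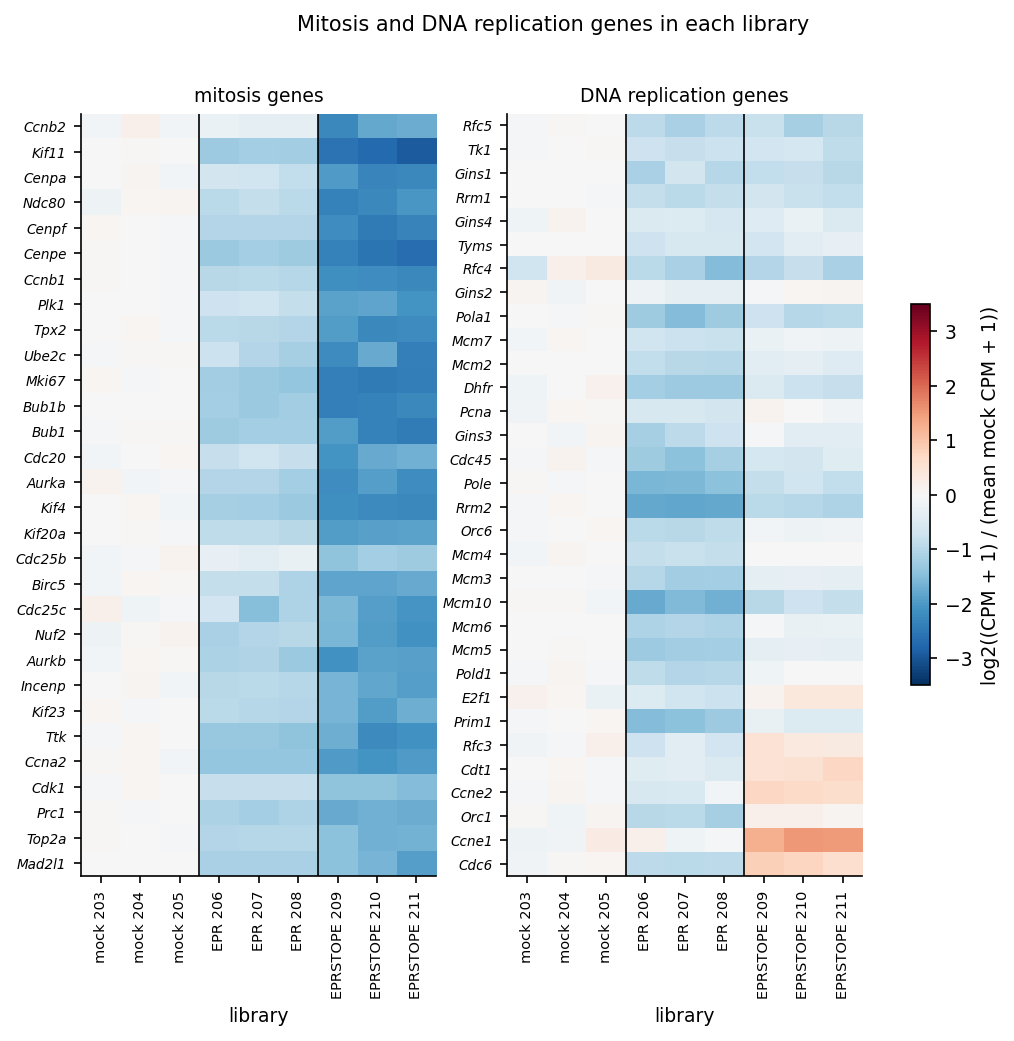
Level of the 30 mitosis genes (left) and 32 DNA replication genes (right) in each of the 9 libraries, as log2 of (CPM + 1) over (mean mock CPM + 1), ordered by the difference between EPR and EPRSTOPE. In the mitosis panel the EPRSTOPE columns are darker blue than the EPR columns for all 30 genes. In the replication panel the EPR columns are mostly the bluer, and *Ccne1* and *Cdc6* are above mock in the EPRSTOPE libraries.

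Promoters of both lists are described because their members moved together. RefSeq promoters of GRCm38.p6, from 250 bases before to 50 bases after the start, were matched for 24 of the 30 mitosis genes, 25 of the 32 replication genes and 9982 of the 15370 tested genes. They were searched on both strands for CCAAT, for the CHR letters TTTGAA or TTCGAA, and for the E2F letters TTTCCCGC, TTTCGCGC, TTTGCCGC or TTTGGCGC. A CCAAT match stood in 83.3% of mitosis genes and 64% of replication genes, against 43.3% of tested genes. A CHR match stood in 79.2% of mitosis genes and 20% of replication genes, against 16.8% of tested genes. An E2F match stood in 4.17% of mitosis genes and 44% of replication genes, against 4.62% of tested genes. These shares describe letters in a window and say nothing of whether a factor is bound. The 100 bases before the start are given for the leading mitosis genes *Ccnb2* (chr9:70421555-70421654, minus strand) and *Kif11* (chr19:37376282-37376381, plus strand), with CCAAT and CHR matches in capitals. The same stretch is given for the replication gene *Orc1* (chr4:108579354-108579453, plus strand), with its E2F match in capitals. *Orc1* is an example with such a match, not the leading replication gene. The replication genes with larger decreases, *Cdc6* and *Ccne1*, had no E2F match in these 100 bases. The match of *Cdc6* lay further upstream, and *Ccne1* had none in the whole window searched.
Ccnb2: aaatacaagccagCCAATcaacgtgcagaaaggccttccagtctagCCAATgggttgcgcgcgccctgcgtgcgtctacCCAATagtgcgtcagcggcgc
Kif11: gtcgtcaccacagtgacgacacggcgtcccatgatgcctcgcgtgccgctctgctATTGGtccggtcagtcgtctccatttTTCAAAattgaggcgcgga
Orc1: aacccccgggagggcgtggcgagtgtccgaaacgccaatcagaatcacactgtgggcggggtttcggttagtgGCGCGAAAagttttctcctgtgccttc

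Cell cycle inhibitors and targets of p53 leaned towards higher levels in EPR cells. Of 23 tested, 6 were higher, none was lower and 17 were not called, with a median log2 fold change of 0.36, and with counts scaled from TPM 1 was higher. *Cdkn2b*, the p15 inhibitor of CDK4 and CDK6, was at 33.9, 36.0 and 38.5 CPM in EPR, 13.9, 16.2 and 17.95 CPM in EPRSTOPE and 12.7 to 16.2 CPM in mock libraries (1.16). *Cdkn2d*, another inhibitor of this family, and *Bbc3*, a promoter of apoptosis, both had log2 fold changes of 0.99, *Fas*, a death receptor on chromosome 19, had 0.82, *Btg2*, an antiproliferative gene, 0.81 and *Sesn2*, a stress sensor, 0.63. *Cdkn2d* was not called without library 206, 208, 209 or 211, nor *Bbc3* without 207. *Cdkn1a*, the p21 inhibitor that the study follows, was named after its values were seen. It was at 103, 94.3 and 93.2 CPM in EPR and 75.9, 84.7 and 78.8 CPM in EPRSTOPE libraries, against 6.37 to 8.02 CPM in mock libraries, and was not called (log2 fold change 0.28, adjusted p = 0.014).

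Annexins and S100 proteins, which bind membranes and other proteins on calcium, were more often called lower than higher. Of 25 tested, 1 was higher, 9 were lower and 15 not called, with a median log2 fold change of -0.36. The number lower was 3 with counts scaled from TPM. After *Anxa6*, those lower included *Anxa8*, at 436 to 473 CPM in EPR and 973 to 1026 CPM in EPRSTOPE libraries (-1.13), *Anxa11* (-1.08), *S100a13* (-0.84) and *S100a16* (-0.83). The only member higher was *Anxa13*, an annexin of intestinal and kidney epithelium (1.18). Of 16 serpin genes, 7 were lower, 1 was higher and 8 were not called, with a median of -0.62, and with counts scaled from TPM 4 were lower and none was higher. All 7 belong to the intracellular clade B, whose tandem copies on chromosomes 1 and 13 can share reads. Besides *Serpinb11* and *Serpinb7*, *Serpinb2* and *Serpinb1a* had log2 fold changes of -2.37 and -2.19, and *Serpinb9b* was at 102 to 114 CPM in EPR and 416 to 438 CPM in EPRSTOPE libraries (-1.97). *Serpinb5*, the epithelial gene for maspin, was the member that was higher, at 14.3, 13.6 and 14.9 CPM in EPR and 3.22, 2.46 and 2.19 CPM in EPRSTOPE libraries (2.46).

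Of 9 protocadherin genes tested, 3 were lower and none was higher. *Pcdh19*, which the study names as dependent on the peptide (chrX:133582860-133688987), was at 5.32, 4.55 and 5.42 CPM in EPR, 42.5, 47.4 and 57.7 CPM in EPRSTOPE and 24.0 to 28.6 CPM in mock libraries, so that the populations lay on opposite sides of mock (log2 fold change -3.26, standard error 0.14, adjusted p = 1.8e-08). *Pcdh18* (-4.22) and *Pcdh7* (-0.70) were the others. The giant cadherin *Fat1*, at 1552 to 1740 CPM in EPR and 1183 to 1309 CPM in EPRSTOPE libraries, was not called (0.38).

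Transporters that differed were few, and some of the differences were large. Scaling counts from TPM left 2 genes of each list higher and none lower. Of 18 zinc transporter genes, *Slc39a4*, the importer of dietary zinc and also named by the study (chr15:76612383-76617384), was at 136, 144 and 136 CPM in EPR, 11.2, 9.29 and 8.52 CPM in EPRSTOPE and 0.777 CPM or less in mock libraries (log2 fold change 3.85, standard error 0.18, adjusted p = 4.1e-08). *Slc39a10* was also higher (1.42) and *Slc39a6* lower (-0.62), and 15 members were not called. Of 25 ion transporter genes, 3 were higher, 2 lower and 20 not called. Besides *Slc9a2*, *Atp1b1*, the β chain of the sodium pump, was higher, at 23.5 to 26.2 CPM in EPR and 3.11 to 5.25 CPM in EPRSTOPE libraries (2.59).

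Signalling lists gave no uniform direction. Of 32 TGF-β and BMP genes, 4 were higher, 4 lower and 24 not called, and with counts scaled from TPM 1 was higher and 2 lower. The ligands *Tgfb2*, *Bmp2*, *Tgfb1* and *Inhba* were lower, with log2 fold changes of -2.38, -1.41, -1.01 and -0.60. *Tgfb2* was at 5.41, 5.81 and 5.42 CPM in EPR, 29.0, 32.6 and 25.1 CPM in EPRSTOPE and 32.5 to 33.2 CPM in mock libraries. Those higher were *Inhbb*, an activin subunit (2.34), *Fst*, follistatin, an antagonist of activins (1.97), the ligand *Tgfb3* (0.90) and *Ltbp3*, a binding protein of latent TGF-β on chromosome 19 (0.88). *Inhbb* and *Tgfb3* were far below their mock level in both populations, *Inhbb* at 1.402 to 3.23 CPM in EPR, 0.847 CPM or less in EPRSTOPE and 77.98 to 95.3 CPM in mock libraries. *Tgfb3* was called without library 207 but not without any other of the 6. Of 12 EGF family genes, *Areg*, an EGF receptor ligand, was lower (-0.63) and 11 were not called, and without library 209 there was 1 higher. Of 9 FGF family genes, *Fgf1*, at 16.2 to 17.5 CPM in EPR and 0.678 to 2.14 CPM in EPRSTOPE libraries (3.39), and the feedback inhibitor *Spry1* (0.94) were higher, and *Spry2* was lower (-0.83). Leaving out library 206, 207, 208, 209 or 210 left 1 higher FGF family gene. With counts scaled from TPM, 1 FGF family gene was higher, and no other gene of the EGF and FGF families was called.

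Interferon-stimulated genes were split, with 3 of 25 higher, 6 lower and 16 not called, and with counts scaled from TPM 1 was higher and 2 lower. Without genes of chromosome 19, 2 were higher. The MHC class I gene *H2-D1*, whose relatives can share its reads, was lower, at 32.8 to 35.4 CPM in EPR and 81.8 to 86.5 CPM in EPRSTOPE libraries (log2 fold change -1.33). *Rsad2*, *Oas2* and *Ifi27*, antiviral genes, were also lower (-3.30, -2.52 and -1.53), whereas *Mx1* and the virion tether *Bst2* were higher (2.41 and 1.71). Leaving out library 206, 209, 210 or 211 left 3 lower interferon-stimulated genes, and leaving out 206, 207, 208 or 209 left 1 higher. *Mx1* was not called without 209 or 210, *Oas2* not without 206, 207 or 208, and *Rsad2* not without 206. Of 25 cholesterol synthesis genes, *Cyp51* was higher (0.81), and *Srebf1*, a regulator of lipid synthesis, and *Fdps* were lower (-0.60 and -0.52). Without library 208 or 210 only 1 of them was lower, and without 209 there were 2 higher. Of 8 tested genes of the X-linked Armcx and Bex clusters, *Armcx3* and *Bex3* (0.62) were higher, and *Tceal8* (-1.55) and *Armcx1* were lower, the last with 3 counts in EPR and 33 counts in EPRSTOPE libraries, a ratio of 13.8 with an interval of 4.33 to 70.4. Without library 206, 208, 209 or 211 there was 1 in each direction, and without 207 there was 1 lower. With counts scaled from TPM, no cholesterol synthesis gene was called, and 1 Armcx or Bex gene was called in each direction.

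Ribosomal protein genes served as a comparison, with 39 of 40 not called. *Rpl11* (-0.63, adjusted p = 0.0081) was called lower, and it was no longer called without library 206, 208, 210 or 211, nor with counts scaled from TPM. Without 210, 1 of these genes was higher. Pseudogene copies of these genes can share reads with them.

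Called genes were not spread evenly over the chromosomes. On chromosome 19, 207 of 476 tested genes (43.5%) were higher in EPR cells and 6 were lower, with a median log2 fold change of 0.547, against shares of 2.91% to 7.09% higher on the other autosomes and X. On the scale of log2(CPM + 1), the chromosome's median against mock was -0.024 in EPR and -0.484 in EPRSTOPE cells. On chromosome 12 the direction was opposite, with 17 of 584 genes higher and 91 (15.6%) lower and a median of -0.253, and there EPR cells were the ones further from mock, with a median of -0.230 against -0.063. Chromosome 14 had 54 of 488 genes (11.1%) lower. Leaving out genes of chromosomes 12 and 19 left 831 higher and 879 lower genes. Of the genes given above, *Kif11*, *Incenp*, *Fas*, *Ltbp3*, *Ankrd1* and *Neat1* lie on chromosome 19 and *Apob*, *Lamb1*, *Grhl1*, *Tgfb3*, *Rsad2* and *Ifi27* on chromosome 12. With each fold change taken relative to the median of its chromosome, 29 of 30 mitosis genes were higher and 23 of 32 replication genes lower. The part of chromosome-wide shifts in single genes was not tested.

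**Figure D5:**
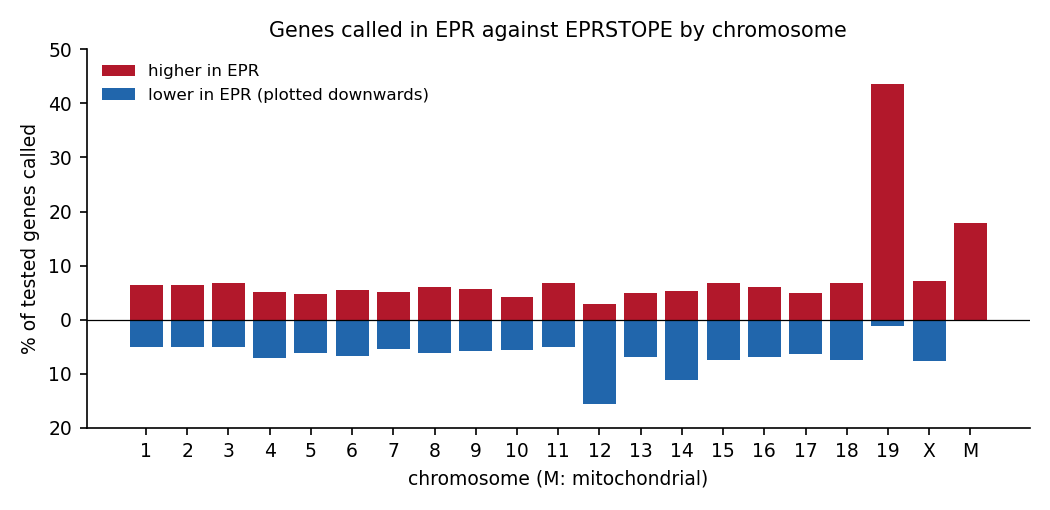
Share of tested genes on each chromosome called higher (red, upwards) and lower (blue, downwards) in EPR against EPRSTOPE cells, in percent. Chromosome 19 stands out with 43.5% higher and 1.26% lower, and chromosome 12 with 15.6% lower.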

How the data were processed

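Total RNA of 9 NMuMG libraries was sequenced with a stranded kit, as paired reads of 75 bases per the labels. The authors pseudo-aligned the reads with kallisto to the mouse Gencode vM15 transcripts and deposited, for each library, estimated counts (est_counts) and TPM of every transcript. The strand setting is not given in the sources used here. Estimated counts were summed per gene symbol and rounded to whole numbers. The 15370 genes that reached 1 CPM in 3 or more of the 9 libraries were fitted in edgeR 4.0.16 (quasi-likelihood test, TMM, 1 factor with the groups mock, EPR and EPRSTOPE) under R 4.3.3. Mock libraries share in the estimate of the spread. A call needed a Benjamini-Hochberg adjusted p below 0.01 and a log2 fold change above 0.5 in size, and p-values were adjusted over all tested genes. The standard error of a log2 fold change was derived from its F statistic. The biological coefficient of variation was 0.1317. The deposited TPM values entered 1 alternative, gene counts scaled from TPM. Other alternatives were DESeq2 1.42.0, limma 3.58.1 (voom), other size factors, filters and limits, the 6 libraries without mock, and each library left out.

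On simulated counts for 15370 genes with 200 changed, the edgeR fit of EPR against EPRSTOPE recovered 175 with 1 false call. All changes had the same size, very low genes were left unchanged and no chromosome was shifted. The share changed was also far below the 13.2% called in the data, so these numbers do not measure the accuracy of the calls above. Intervals and floors (3 counts over a group without counts) cover counting error only. Gene positions are those of Gencode M21, and promoters those of RefSeq GRCm38.p6. The libraries compared, the gene lists and the rule for named genes were chosen with earlier results of these data known. The rule took EPR, some of the genes and peptide partners the study names, the 20 largest changes in each direction at 10 CPM or more (about 12 of each described), up to 6 members per list by size plus abundant ones not called, abundant called genes and cell type markers. List members named beyond it, where a count was 5 or fewer or a chromosome was described, were chosen after their values were seen. Some list members and genes the study names are not reported here.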

Additional observations from a re-analysis of the deposited data

How the results depend on the processing

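The numbers of higher and lower genes stayed within 1.5 times of 1055 and 976 with DESeq2 (1122 and 1023), limma-voom (1060 and 995), library size only (1163 and 878), no filter (1366 and 1142), at least 10 counts in every library (881 and 745), the 6 libraries without mock (1032 and 899), an adjusted p under 0.05 (1390 and 1215), and without genes of chromosome 19 (848 and 970). Counts scaled from TPM gave 258 higher and 224 lower genes, with 12 mitosis genes higher and 12 replication genes lower, and they moved 44 of 60 list counts by over 1.5 times or from 0. The cause was not tested. Of 173 single genes named in the text, 98 kept call and direction in every alternative that tested them, no called gene changed sign, and 69 were no longer called with counts scaled from TPM. *Cttn* and *Zeb1*, not called and near 0 (-0.03 and -0.02), had positive values under some alternatives, up to 0.19 and 0.10 with counts scaled from TPM. A log2 fold change beyond 1 left 577 and 424 genes by its own construction. Leaving out 1 library gave 832 to 989 higher and 804 to 852 lower genes, 28 to 30 higher mitosis genes, 21 to 23 lower replication genes, and a log2 fold change of EPR RNA of 2.486 to 2.646. No paired analysis was possible because the groups share no replicate numbers. Genes near 0.5 CPM rest on about 3 counts, and small list counts changed with single libraries, as given beside them.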

Other observations

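A further 3 gene lists were drawn up after the data had been seen, and they are given as descriptions. Of 27 genes of chaperones of the endoplasmic reticulum and of the unfolded protein response, 14 were lower in EPR than in EPRSTOPE cells, 1 was higher and 12 were not called, with a median log2 fold change of -0.56. With counts scaled from TPM, 8 were lower and none was higher. *Hspa5*, the chaperone BiP, was at 1489, 1579 and 1432 CPM in EPR, 3456, 3358 and 3379 CPM in EPRSTOPE and 1824 to 1951 CPM in mock libraries (-1.18). *Creld2*, *Pdia4*, *Sdf2l1* and *Manf*, which act in protein folding or its stress response, had log2 fold changes of -1.52, -1.15, -1.10 and -1.04. By summed level the EPRSTOPE population stood apart here, at 13850 to 14315 CPM against 8693 to 9018 CPM in EPR and 8955 to 9542 CPM in mock libraries. Gene by gene, the mock mean of the 14 lower genes was nearer to EPR for 10 and nearer to EPRSTOPE for 4. It lay between both populations for 12 of them. The stress factors *Atf4* (0.25) and *Ddit3* (-0.19) were not called. The member higher, *Syvn1*, lies on chromosome 19, and it was not called without library 207, 208 or 209.

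Of 12 tested genes of the intestinal brush border and enterocyte programme, 7 were lower and 3 higher, with a median log2 fold change of -1.05. Besides *Apob*, *Cdh17* and *Cdx2*, those lower included *Cdhr5*, a cadherin of microvilli, at 0.253 to 0.436 CPM in EPR and 16.3 to 17.96 CPM in EPRSTOPE libraries, and *Myo7b*, a microvillar myosin, at 0.611 to 1.03 CPM and 14.5 to 19.7 CPM. For all 7 the mock mean was below both populations. *Vil1*, which bundles actin in microvilli, was higher, at 39.8 to 45.0 CPM in EPR and 7.62 to 9.29 CPM in EPRSTOPE libraries (2.33). Without library 206, 1 gene of the list was higher, and with counts scaled from TPM 1 was higher and 4 lower.

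Of 13 protein genes of the mitochondrial genome, 4 were higher and none was lower, with a median log2 fold change of 0.66. For 12 of 13 the value was above 0. For 9 of 13 the EPR libraries all exceeded the EPRSTOPE libraries, against 20.8% of all tested genes in that direction. Their summed levels overlapped, at 10726 to 14383 CPM in EPR and 9535 to 10782 CPM in EPRSTOPE libraries. Values could vary widely within a group. *mt-Co3*, for example, was at 616, 720 and 1178 CPM in EPR and 671, 273 and 277 CPM in EPRSTOPE libraries, so that the groups overlapped. Among the fits that left out 1 library, it was called only without library 209. Without library 207 or 208, 2 of them were higher, and with counts scaled from TPM none was called. Mitochondrial genes took 1.90% to 2.58% of the counts in EPR libraries and 1.62% to 1.68% in EPRSTOPE libraries.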
